A study of Mus musculus with 2 samples.

Results

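The folate one-carbon enzymes described here are the products of 8 mouse genes, Mthfd1, Mthfd1l, Mthfd2, Tyms, Aldh1l1, Ggh, Fpgs and Atic. They were chosen by gene symbol: every probe set (a group of short oligonucleotides that reads 1 transcript region) whose only symbol was one of the 8, which gave 16 of the 34945 probe sets with a single gene, and 8 of 18193 named genes. Expression was measured in the cerebral cortex on 2 Affymetrix arrays. One array received an equal mixture of total RNA from 3 wild-type males, and the other an equal mixture from 3 males titled KO (knockout). The title does not name the knocked-out gene, taken here as Gnmt. All mice were 4 weeks old and of a mixed 129/B6 background. Because the animals were pooled and each genotype had 1 array, no spread between mice was measured and no difference could be tested.

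Folate carries single carbon units between metabolic pathways. In the cytosol, the trifunctional enzyme MTHFD1 interconverts the formyl, methenyl and methylene forms of tetrahydrofolate. These feed purine synthesis, thymidylate synthesis and the remethylation of homocysteine to methionine. In mitochondria, MTHFD2 oxidises methylene-tetrahydrofolate and MTHFD1L releases formate for export to the cytosol. In the brain ALDH1L1, which oxidises formyl-tetrahydrofolate, is known as an astrocyte marker. Glycine N-methyltransferase, the product of Gnmt, consumes S-adenosylmethionine and is bound and inhibited by a reduced folate, which ties it to this pathway.

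The labels and the arrays did not match at several points. The sample titled KO carries a genotype entry of wild-type, and it is called the KO-labelled pool below. The only Gnmt probe set read 10 units in the wild-type pool against 21.5 units in the KO-labelled pool. Both lay under the floor of 64.2 units, the 40th percentile of all signals, below which a signal was treated as not measured, so Gnmt did not check the labels. Which part of Gnmt was deleted was not given in the sources used here. Both pools are labelled male, yet the brightest probe set of Xist, the RNA of the inactive X chromosome of females, read 49.6 and 2560.3 units in the wild-type and KO-labelled pool. Xist was named after its values were seen. Brightest probe sets of 8 anterior pituitary markers summed to 31448 units in the wild-type pool against 760 units in the KO-labelled pool. Growth hormone (Gh) stood at 23223 and 200 units. By brightest probe sets, 9 of 9 neuronal markers were measured and 0 of them were past 1.5-fold. Tubb3 lay just short of that line, at 1988.9 and 1339.2 units, and some other probe sets of these markers lay past it. Of all measured genes 30.7% were at least 1.5-fold apart. The part of the pituitary difference, of the Xist difference and of the genotype entry in the results below was not tested.

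Of the 8 genes, 7 were measured on both arrays, and 2 of them, Mthfd1l and Fpgs, were at least 1.5-fold higher in the KO-labelled pool. None of the 7 was at least 1.5-fold lower. Among all 12251 measured genes, 12.5% were higher and 18.3% lower by that margin, 30.7% either way. With only 7 genes measured, a count of 2 is not set apart from that background. Ratios are log2 of KO-labelled over wild-type signal, centred on the median of all measured probe sets. A gene is represented by its brightest measured probe set. The median ratio of the 7 genes was 0.45, and that of all genes was -0.06. By the median of all probe sets of a gene the median of the 7 was 0.20, and 5 of the 7 had a ratio above 0 by brightest probe sets, as did 45.8% of all genes. Over probe sets, 2 of the 11 measured were at least 1.5-fold higher and 0 lower, against 16.5% and 18.1% of all 20967 measured probe sets with 1 gene. The yardstick for a single ratio was the disagreement between probe sets of 1 gene. The difference between the ratios of the 2 brightest was taken over 5375 genes with 2 or more measured probe sets. The SD of that difference, divided by the square root of 2, was 0.58 on the log2 scale, or 1.49-fold. This value is called the SD between probe sets. It holds no spread between mice or pools.

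**Figure D1:**
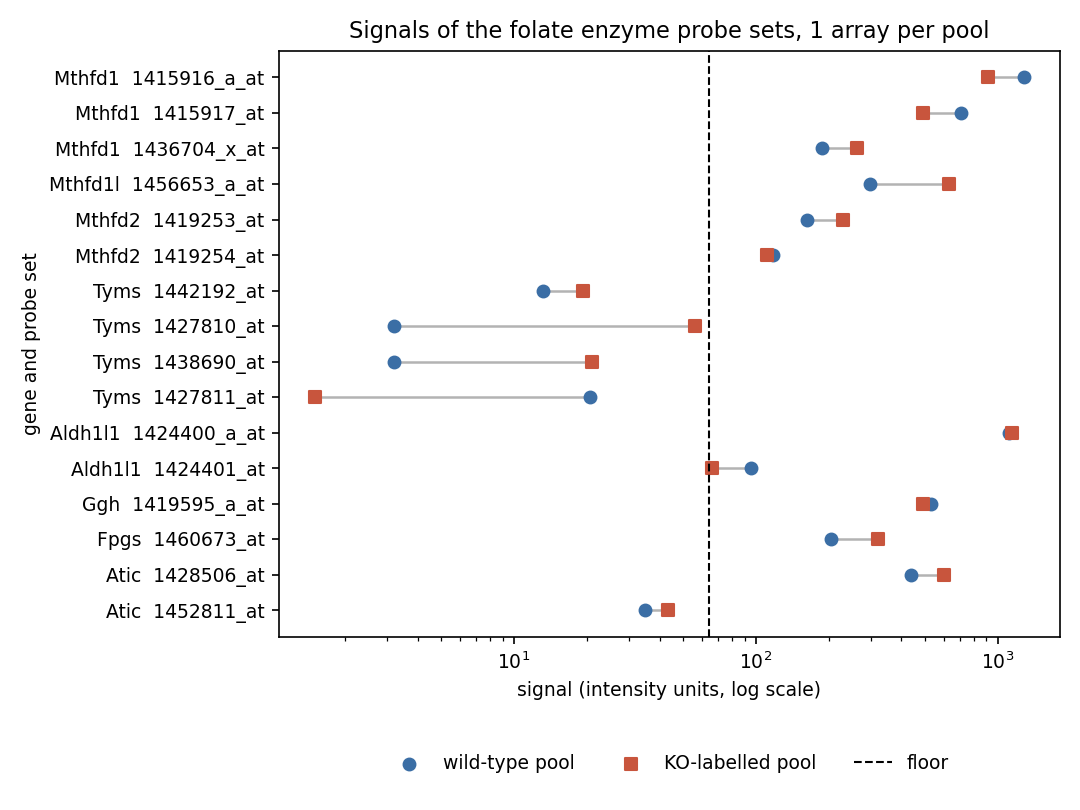
Signal of each of the 16 probe sets (rows, by gene) on a log axis in intensity units, with 1 point for the wild-type pool (circle) and 1 for the KO-labelled pool (square). The dashed line is the floor of 64.2 units: all 4 Tyms probe sets and 1 Atic probe set lie below it on both arrays, and Mthfd1l shows the widest gap among the measured ones.

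**Figure D2:**
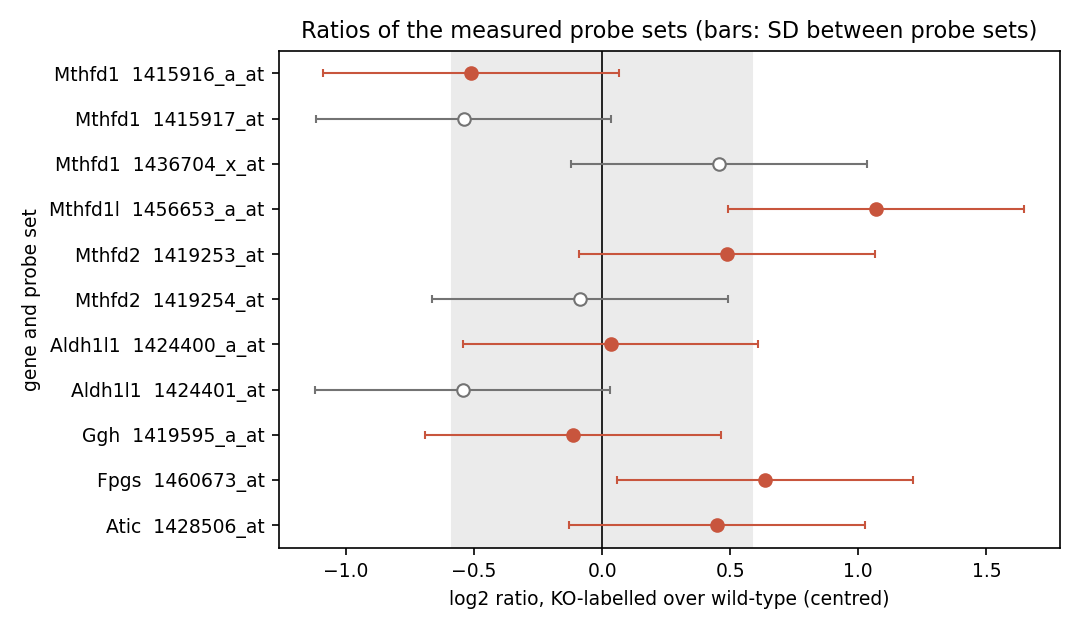
Centred log2 ratio of KO-labelled over wild-type signal (x axis) for the 11 measured probe sets (rows), with bars of 0.58, the SD between probe sets of a gene. Filled points are the brightest probe set of a gene, open points its other probe sets, and the grey band spans ratios under 1.5-fold; only Mthfd1l and Fpgs lie outside it.

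Mthfd1l encodes the mitochondrial synthetase that splits formyl-tetrahydrofolate into formate and tetrahydrofolate. Its single probe set, 1456653_a_at, read 297.0 units in the wild-type pool against 629.0 units in the KO-labelled pool. The level in the KO-labelled pool was thus 2.1-fold the wild-type level, a log2 ratio of 1.07. This was the highest ratio of the 7 genes, and 97.2% of all measured genes had a lower one. Of all genes, 3.47% were at least 2-fold higher. The ratio was 1.85 times the SD between probe sets, and with 1 probe set it had no second reading on these arrays. It kept its place past 1.5-fold under each of the 8 settings that gave it a value, the reported one included, with ratios from 0.97 to 1.13. Most of these settings could hardly move it. Changes of floor or centring shift all ratios alike, and the median over 1 probe set is the same reading.

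Mthfd1, the cytosolic relative of Mthfd1l, had the lowest ratio of the 7 genes by its brightest probe set, and its 3 probe sets did not point one way. The brightest, 1415916_a_at, read 1290.2 and 911.6 units in the wild-type and KO-labelled pools, a ratio of -0.51 or 1.43-fold lower. The second read 707.7 and 490.4 units, a ratio of -0.54. These 2 readings differed by only 0.03, and 95.7% of the gene pairs lay at least that far apart. The third, 1436704_x_at, read 188.8 and 261.1 units, a ratio of 0.46 in the other direction. It lay 0.97 from the brightest, a gap reached by 17.8% of the gene pairs. The suffix x marks a probe set that can bind several transcripts. None of the 3 was 1.5-fold apart, and each was under 1 SD between probe sets from 0. Without a floor, which moves the centre, the ratio of Mthfd1 was -0.62, past 1.5-fold.

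Mthfd2 encodes the mitochondrial methylene-tetrahydrofolate dehydrogenase, an enzyme best known from embryonic and dividing cells. Its brighter probe set read 163.1 units in the wild-type pool against 230.6 units in the KO-labelled pool, a ratio of 0.49. Its other probe set read 117.4 and 111.5 units, a ratio of -0.09. The 2 readings lay 0.57 apart, as 37.1% of gene pairs did or more, so no direction held over both. The signals were only 2.54 and 1.74 times the floor at their lower end.

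Fpgs adds glutamate residues to folates, which holds them inside the cell, and Ggh encodes the lysosomal hydrolase that takes the residues off again. The single Fpgs probe set, 1460673_at, read 204.5 units in the wild-type pool against 320.3 units in the KO-labelled pool. Its ratio of 0.64, or 1.55-fold higher, lay just past the 1.5-fold line, and 89.1% of all genes had a lower ratio. It was 1.10 times the SD between probe sets. With quantile normalization the ratio was 0.50 and without a floor 0.53, both short of 1.5-fold. Ggh read 528.7 and 492.9 units, a ratio of -0.11, well inside the disagreement between probe sets. On these arrays the RNA signal of Fpgs thus differed by more than that of Ggh, in values that each rest on 1 probe set. Whether the 2 ratios differ from each other was not tested. Among 16 lysosomal genes, nearly all of hydrolases, 0 were at least 1.5-fold higher and 3 lower, against 12.5% and 18.3% of all measured genes. The median of the 16 was -0.15. The lowest by brightest probe sets were Fuca1 (-0.76), Glb1 (-0.73) and Ctsb (-0.59). Other readings reached 0.0034 for Fuca1 and 0.24 for Ctsb.

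Promoter sequences are shown for the 2 genes past 1.5-fold, Mthfd1l and Fpgs, and for Mthfd1, the gene with the lowest ratio. RefSeq promoters of build GRCm38.p6 matched 7 of the 8 genes. Each sequence is the 250 bases before the annotated start, 5′ to 3′ on the gene's strand. Capitals mark 4 short words on either strand: CCAAT, the GC box GGGCGG, the E-box CACGTG and TGACG, a part of the cyclic AMP response element, all chosen after the data had been seen. CACGTG is in none of these 3.
Mthfd1l (chr10:3972825-3973074, plus strand): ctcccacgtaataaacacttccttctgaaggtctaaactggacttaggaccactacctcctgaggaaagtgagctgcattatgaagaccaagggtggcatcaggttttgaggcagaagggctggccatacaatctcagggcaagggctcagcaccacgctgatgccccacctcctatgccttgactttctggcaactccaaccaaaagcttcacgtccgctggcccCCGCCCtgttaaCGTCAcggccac
Fpgs (chr2:32694176-32694425, minus strand): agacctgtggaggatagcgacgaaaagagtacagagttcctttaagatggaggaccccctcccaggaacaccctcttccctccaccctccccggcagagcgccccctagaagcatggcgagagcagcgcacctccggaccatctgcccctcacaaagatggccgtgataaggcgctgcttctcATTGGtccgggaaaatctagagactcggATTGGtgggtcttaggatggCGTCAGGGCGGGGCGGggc
Mthfd1 (chr12:76254982-76255231, plus strand): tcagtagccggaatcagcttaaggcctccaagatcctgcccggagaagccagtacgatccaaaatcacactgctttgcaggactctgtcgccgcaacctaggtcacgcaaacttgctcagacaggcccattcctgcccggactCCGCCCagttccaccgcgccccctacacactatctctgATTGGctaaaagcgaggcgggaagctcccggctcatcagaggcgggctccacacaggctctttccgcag
The windows of Mthfd1l and Fpgs each held TGACG on the strand opposite to the gene, at -12 to -8 and -19 to -15 from the start. Of the same window in all 32851 promoters 17.8% held it, and among the 7 windows it was found in these 2. In Fpgs this word runs straight into 2 overlapping GC boxes, which appear as 1 run of capitals. A GC box was found in 6 of the 7 windows, all but that of Mthfd2, and in 32.7% of all promoters. CCAAT was found in 5 of 7, those of Mthfd1, Mthfd2, Aldh1l1, Fpgs and Atic, and in 33.8% of all promoters. The windows of Tyms and Atic held CACGTG, which 6.02% of all promoters held. The ATF4 element core TGATGNAA and the E2F words TTTGGCGC and TTTCCCGC, searched on both strands, were in none of the 7 windows and in 3.45%, 0.417% and 0.895% of all promoters. GC content was 54.4% for Mthfd1l, 60.4% for Fpgs and 59.2% for Mthfd1, and the median of all promoters was 52.4%. The ratio of observed to expected CpG pairs was 0.389, 0.614 and 0.714 for the same 3 genes, against a median of 0.374. A word in a window is a description of its letters only.

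Atic encodes the enzyme of the last pair of steps of purine synthesis, which takes a formyl group from folate. Its brighter probe set read 438.3 units in the wild-type pool against 603.2 units in the KO-labelled pool, a ratio of 0.45 that lay under 1 SD between probe sets. The other read 34.7 and 43.5 units, below the floor on both arrays. Of 9 other purine synthesis genes, 1 was at least 1.5-fold higher, Pfas at 0.87 (528.8 and 976.5 units), and 0 were lower, with a median of 0.02. The shares of all measured genes were 12.5% higher and 18.3% lower. Gart, the other formyl-folate-using enzyme of the route, stood at 0.15 by its brightest probe set and at up to 0.38 over its 4.

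Tyms encodes thymidylate synthase, which makes the thymidine nucleotide from deoxyuridylate with methylene-tetrahydrofolate and is high in dividing cells. All 4 of its probe sets were below the floor on both arrays. The wild-type pool read 13.2, 3.2, 3.2 and 20.6 units, and the KO-labelled pool 19.3, 55.9, 21.1 and 1.5 units in the same order. The differences ran both ways, and Tyms has no ratio in the reported setting. Another probe set, which also names the pseudogene Tyms-ps, read 53.5 and 11.4 units and was left out by the rule. Other genes of nucleotide supply and DNA replication were partly measured, 9 of 13. Of these, 1 was at least 1.5-fold higher, Rrm2 (0.72), and 3 were lower, Mcm6 (-1.03), Top2a (-0.79) and Dut (-0.74). Across all measured genes 12.5% were higher and 18.3% lower. The other readings of Mcm6 and Dut were nearer to no difference, -0.12 and -0.11. The 4 genes left, Tk1, Mki67, Mcm3 and Cdk1, were below the floor on 1 or both arrays and were not counted. By brightest probe sets Mki67 read 90.7 and 4.2 units, Mcm3 107.0 and 47.4, Cdk1 79.6 and 53.4, and Tk1 2.6 and 4.1. Of these signals, only those of Mki67, Mcm3 and Cdk1 in the wild-type pool were above the floor.

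Aldh1l1 had nearly equal signals in both pools by its brightest probe set and a lower one in the KO-labelled pool by its other. The brightest, 1424400_a_at, read 1112.9 and 1148.1 units in the wild-type and KO-labelled pools, a ratio of 0.03. The second read 95.2 and 65.8 units, a ratio of -0.54, and its KO-labelled signal was only 1.02 times the floor. The sign of the brightest probe set turned to -0.01 with a floor at the 25th percentile and to -0.07 with none. Of 16 other astrocyte markers, 5 were at least 1.5-fold lower and 0 higher, against 18.3% and 12.5% of all measured genes. The median of the markers was -0.19. The lowest were Pla2g7 at -1.39, S100b at -1.23 and Gfap at -1.23, while Glul, the glutamine synthetase gene, had 0.33. Their brightest probe sets summed to 105802 units in the wild-type pool against 101435 units in the KO-labelled pool. In such pooled tissue fewer cells of a type and less RNA per cell cannot be told apart.

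The other folate pathway genes did not share a direction. The list held carriers, glycine cleavage enzymes and folate interconverting enzymes, with 14 of 19 genes measured. At least 1.5-fold higher were 2, Sardh (0.98) and Shmt1 (0.62), and lower were 3, Dld (-0.71), Mthfd2l (-0.71) and Slc46a1 (-0.68), with a median of -0.03. By that margin 12.5% of all measured genes were higher and 18.3% lower. Mthfd2l, the mitochondrial paralog of Mthfd2 also expressed in adult tissues, read 319.0 and 197.2 units, and its 3 measured probe sets ranged from -1.25 to -0.71. All 3 were past 1.5-fold, in the direction opposite to Mthfd1l, whose enzyme acts downstream of it. Slc46a1, the proton-coupled folate transporter, read 251.8 and 158.0 units, with its 2 probe sets at -0.79 and -0.68. Shmt1, which loads a carbon from serine onto folate in the cytosol, read 142.9 and 221.4 units, with readings of 0.62 and 0.45. Sardh, which passes the carbon of sarcosine to folate, read 98.9 and 197.2 units and had a second reading of -0.16. With a floor at the 60th percentile, 0 of 8 genes of the list were at least 1.5-fold higher and 2 lower. The shares of all genes were then 13% and 15.2%. Dld, the lipoamide dehydrogenase shared by glycine cleavage and the pyruvate dehydrogenase complex, read 1971.2 and 1215.6 units by 1 measured probe set.

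The transcription factor ATF4 is known to drive Mthfd2, Mthfd1l and the serine synthesis genes together, and here the other genes of its list had ratios on both sides of 0. Of 13 measured genes of that list, 2 were at least 1.5-fold higher, Slc7a11 (2.12) and Ddit4 (1.49), and 4 lower. Among all measured genes the shares were 12.5% and 18.3%. The median of the list was -0.44. The lowest were Ddit3 (-1.13), Psph (-0.74) and Nupr1 (-0.73). Atf4 read 3246.2 and 2357.3 units by its brightest probe set, a ratio of -0.47, with another at 0.57. The ratio of Mthfd1l, 1.07, stood beside lower values for the serine synthesis genes Psph and Phgdh (-0.68), and beside 0.38 for Psat1. The 4 probe sets of Phgdh ran from -0.81 to -0.05, and Psat1 had another reading of -0.20. Whether ATF4 had a part in these ratios was not tested.

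**Figure D3:**
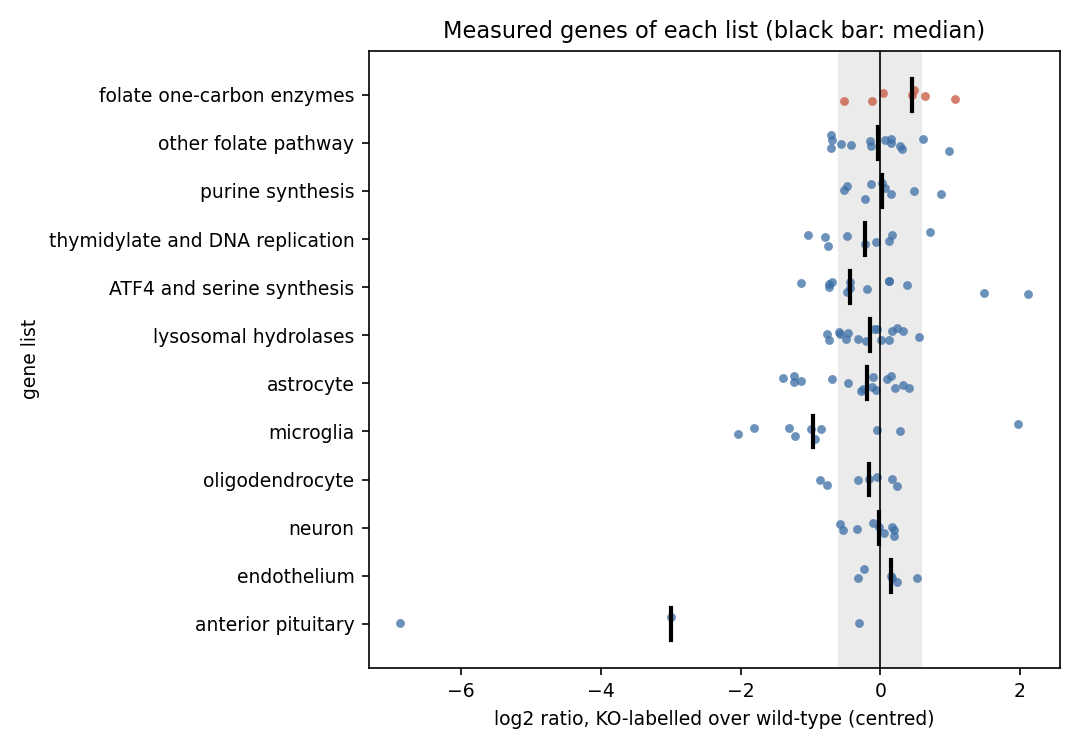
Centred log2 ratio of KO-labelled over wild-type signal (x axis) for each measured gene of the folate one-carbon enzymes (top row) and of the lists set beside them, 1 point per gene by its brightest probe set and a black bar at the median. The grey band spans ratios under 1.5-fold; the folate enzymes have a median of 0.45, while the microglia markers (-0.96) and the 3 measured pituitary markers (-3.00) lie lowest.

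Among the cell type markers, those of microglia and pituitary had the lowest medians. Among microglia markers 10 were measured, 7 of them at least 1.5-fold lower and 1 higher, with a median of -0.96. Their summed signals were 13793 units in the wild-type pool against 11314 units in the KO-labelled pool. Oligodendrocyte markers had 2 of 7 lower and 0 higher (sums 65968 and 58152 units), and endothelial markers had 0 of 6 past 1.5-fold (4273 and 4671 units). Beside these counts, 18.3% of all measured genes were at least 1.5-fold lower and 12.5% higher. The neuronal markers summed to 102143 and 96687 units, and the ratios of all their measured probe sets ran from -0.70 (Stmn2) to 2.44 (Syt1). Whether cell composition had a part in the ratios of the folate enzymes was not tested.

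**Figure D4:**
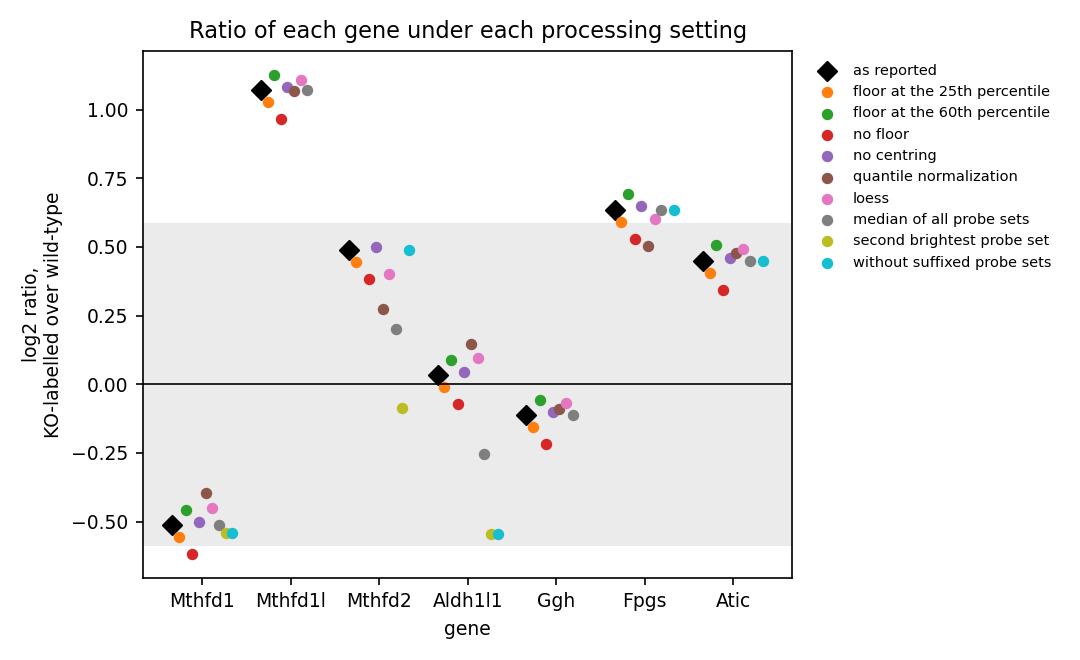
Log2 ratio of KO-labelled over wild-type signal (y axis) for the 7 measured genes (x axis) as reported (black diamonds) and under each of 9 other processing settings (coloured points, where the setting gives a value). The grey band spans ratios under 1.5-fold: Mthfd1l stays above it in all its points, Fpgs crosses into it with quantile normalization and without a floor, and Mthfd2 and Aldh1l1 have points on both sides of 0.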

How the data were processed

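Per the labels' protocols, RNA came from a Trizol extraction and was biotinylated by the Affymetrix procedure. The authors deposited 1 linear intensity per probe set and array. GCOS is named in the submitters' processing notes, but its version and signal algorithm were not given in the sources used here, and no detection calls were used. The mean of each deposited column without the outer 2% at either end was 500.0, so both arrays had been scaled to the same such mean. Lower signals still differed, with a median of 92.0 units in the wild-type pool against 124.9 units in the KO-labelled pool. At or above the floor were 56.9% and 63.1% of the probe sets that were not controls, in the same order. Of 45101 probe sets, 64 were controls and were left out. Genes were named from the platform annotation, with symbols updated through the RefSeq table of GRCm38.p6.

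Probe sets at or above the floor on both arrays (23928) counted as measured. Their median log2 ratio, 0.01, was subtracted from every ratio. The precision of all values is limited by the number of arrays, and no p-value was calculated with 1 array per group. The genes named are the 8 members, Gnmt, and up to 3 at either end of each list among those 1.5-fold apart. Named too are the replication genes without a ratio, Tk1, Mki67, Mcm3 and Cdk1. Genes outside that rule (Xist, Gart, Glul, Atf4, Phgdh, Psat1, Tubb3, Stmn2 and Syt1), and Gh as an example of its list, were chosen after their values were seen. No gene was sought for a like pattern, since 2 arrays give none. The members and lists were chosen with earlier results of these data known. Summed marker signals are deposited units over all markers with a probe set of their own. Calculations were tested on simulated data with known shifts. Alternatives changed the floor, scaling and choice of probe set. Python 3.11.15, numpy 2.4.6, pandas 2.3.3, statsmodels 0.14.6 and matplotlib 3.10.9 were used. Protein sequences were not used here.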

Additional observations from a re-analysis of the deposited data

How the results depend on the processing

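Of 124 values recalculated under 9 alternatives, 105 moved by less than the SD between probe sets (for medians, that SD over the square root of the number of genes; for counts, 1.5 times), and 19 moved further. Neither Mthfd1l nor Fpgs, the genes past 1.5-fold, changed sign under any setting that gave them a value. Each has 1 probe set, so the floor, centring and median settings only shifted their ratios by a constant or left them as they were. Values short of 1.5-fold did: Mthfd2 was at -0.09 and the median of the folate enzymes at -0.54 by second brightest probe sets. Aldh1l1 was below 0 under 5 of 9 alternatives, from -0.54 to -0.01. The median of the other folate pathway genes, -0.03 as reported, was 0.06 with a floor at the 25th or the 60th percentile and 0.0029 by the median of all probe sets. The count of folate enzymes at least 1.5-fold higher was 1 without a floor, with quantile normalization and without suffixed probe sets, and 0 by second brightest probe sets, which exist for 3 genes and leave out Mthfd1l and Fpgs. The count lower was 1 of 8 without a floor, where 27.2% of all genes were lower by that margin. Over their probe sets, the count higher was 1 of 10 with quantile normalization and 1 of 6 without suffixed probe sets. The count lower was 2 of 12 with a floor at the 25th percentile and 4 of 16 without one. With loess it was 1 of 11. The share of all probe sets was calculated for the reported setting only, 16.5% higher and 18.1% lower. The median of the folate enzymes was 0.20 by the median of all probe sets, and Aldh1l1 was at -0.54 by its second probe set and without suffixed ones. The count of other folate pathway genes at least 1.5-fold higher was 0 with a floor at the 60th percentile, by the median of all probe sets and by second brightest ones, and 1 with quantile normalization and with loess. Mthfd1 and Ggh had ratios below 0, and Mthfd1l, Fpgs and Atic ratios above 0, under every setting that gave them a value. Mthfd1l had none by second brightest probe sets or without suffixed ones. Tyms had a value only without a floor, 0.43, from signals of 13.2 and 19.3 units. Its 4 probe sets ran both ways, so this value gives no direction. Over the settings 12.5% to 19.4% of all genes were at least 1.5-fold higher and 15.2% to 27.2% lower. The causes of these shifts were not tested beyond the fewer probe sets or genes that some settings leave. No paired analysis was possible because each group has 1 array, and for the same reason no replicate could be left out.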
